A study of Rattus norvegicus with 6 samples.

Results

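PPAR-alpha, encoded by Ppara, and 8 of its classic liver targets were followed in liver RNA of animals on a high-fat diet with and without HTG, the Huazhuo Tiaozhi granule, a herbal preparation. The genes were taken by name from the deposited table, which lists 32930 gene rows, and all 9 names (Ppara, Cyp4a10, Cyp4a14, Cyp4a31, Cyp4a32, Vnn1, Fgf21, Angptl4 and Pdk4) were found on 1 row each. The HFD group (3 libraries) received the high-fat diet and 0.5% CMC-Na, the vehicle. The HTG group (3 libraries) received the same diet and HTG. The series description gives 12 weeks for both groups. For its rats the paper instead describes 12 weeks of diet, with drugs given only during the last 8 weeks. The titles name the treated group HTG, while the treatment label of the same libraries spells it HCG. The sample labels name rats, the paper's RNA sequencing paragraph names dyslipidaemic C57BL/6 J mice, and the identifiers in the table are those of mouse genes in Ensembl, which is how they are treated here. No strain or allele difference between the groups and no age was given. The paper describes a fast before tissue collection for its rats, and its RNA sequencing paragraph states no feeding condition for mice.

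PPAR-alpha is a nuclear receptor that is switched on by fatty acids and by fibrate drugs. Together with its partner RXR it binds DNA and raises the transcription of genes for fatty acid uptake, oxidation and ketone body production. In the liver it is best known for the response to fasting, when fatty acids arrive from adipose tissue. The CYP4A enzymes hydroxylate the end carbon of fatty acids and are the textbook readout of the receptor in rodents, where their mRNA can change far more than that of the receptor itself.

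The targets varied widely between animals of the same group. For 5 of the 8, the 4 Cyp4a genes and Vnn1, the fitted log2 difference between the groups was smaller than the pooled standard deviation within groups. For the other 3, Fgf21, Angptl4 and Pdk4, it was larger. The 2 measures are unlike, since the fitted difference compares mean counts, which 1 high library can carry. The standard deviation is of log2 values of single libraries. For Fgf21 a limma fit on log2 levels gave a difference of -1.15, smaller in size than its standard deviation of 1.46. All 8 were highest in HFD library 2. Of the 18455 genes that passed the filter on low counts, 21.4% had their highest value in that library. In 5 of the 8 targets the lowest value was in HTG library 3, against 14.8% of all genes tested. Ppara itself did not follow this order, since its highest level was in HFD library 3 and its lowest in HTG library 1. HFD library 2 was singled out after its values were seen, and with a single library the difference from its group has no test. P-values and intervals of fits without HFD library 2 are therefore descriptions.

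Each library held between 50648778 and 90563477 estimated counts. Low counts came in steps of 4 (6450 entries of 4, 2549 of 3 and 1757 of 5), so that 1 sequenced fragment was read as about 4 counts and a library held between 12662194 and 22640869 fragments. The 7 hepatocyte markers found in the table, Alb, Apoa1 and Apob among them, were abundant in all libraries, summing to between 81455 and 99029 CPM, where CPM are counts scaled to a common library total. HFD library 2 had the lowest sum of 6 endothelial markers, 55.8 CPM against 86.0 to 137 in the other libraries. Its sum of 8 macrophage markers, 341 CPM, lay close to the 336 of HTG library 3 and below the 514 to 663 of the others. The part of these cell markers in the results was not tested. The pairwise r of log2 CPM, taken over genes that are not independent of each other, ran from 0.950 to 0.980, and no library repeated another. In whole tissue, fewer cells of a type and less RNA per cell cannot be told apart.

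The receptor came first. Ppara (ENSMUSG00000022383, chromosome 15, 85619184 to 85687020, plus strand, coordinates as the table lists them with no named build) had FPKM values of 5.34, 8.30 and 13.09 in HFD libraries 1, 2 and 3. FPKM divides the fragments by transcript length and library total, so that levels of different genes can be set side by side. In HTG libraries 1, 2 and 3 it had 3.91, 6.83 and 4.33. The HTG values lay toward the low end, and the groups overlapped through HFD library 1 and HTG library 2. The mean CPM of Ppara was 35.4 ± 15.1 in the HFD group and 20.4 ± 5.04 in the HTG group (SD, n = 3 per group). The log2 fold change, HTG minus HFD, was -0.80 (standard error 0.33, 95% confidence interval -1.54 to -0.05). Its unadjusted p was 0.0392 and its adjusted p was 0.178 in edgeR's quasi-likelihood test, adjusted by the Benjamini-Hochberg procedure over all genes tested, so Ppara did not pass the threshold of 0.05. Leaving out HFD library 2, HFD library 3, HTG library 1 or HTG library 3 also took its unadjusted p above 0.05. Without HFD library 3 the log2 fold change was -0.45 (adjusted p = 0.426 in edgeR's quasi-likelihood test). It was -1.08 without HFD library 1 and -1.01 without HTG library 2. In the same test the unadjusted p was then 0.00475 and 0.0277, and the adjusted p 0.108 and 0.261.

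None of the 9 genes had an adjusted p under 0.05. In edgeR's quasi-likelihood test 0 of 9 passed, against 0.0108% of all genes tested (2 of 18455), or 0.00542% in either direction taken alone, and in DESeq2 0 of 9 passed as well, against 10.9% of the 19333 genes to which it gave an adjusted p. At an adjusted p under 0.1 in edgeR 0 of 9 passed, against 10.8% of all genes tested (5.41% higher and 5.43% lower in the HTG group), while DESeq2 had 2, Ppara and Pdk4, against 16.1% of its genes. At an unadjusted p under 0.05, 2 of the 9, Ppara and Pdk4, were lower in the HTG group in either tool, against 12.4% of all genes tested that were lower at that threshold in edgeR and 8.82% in DESeq2. The groups did not overlap in 0 of the 9, against 32.1% of all genes tested. The fitted log2 fold change was negative in 8 of the 9, against 8933 of all 18455 genes tested. The median of the 9 was -1.13, and the median over all genes tested was 0.03. That of the 9 turned to 0.60 when HFD library 2 was left out.

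**Figure D1:**
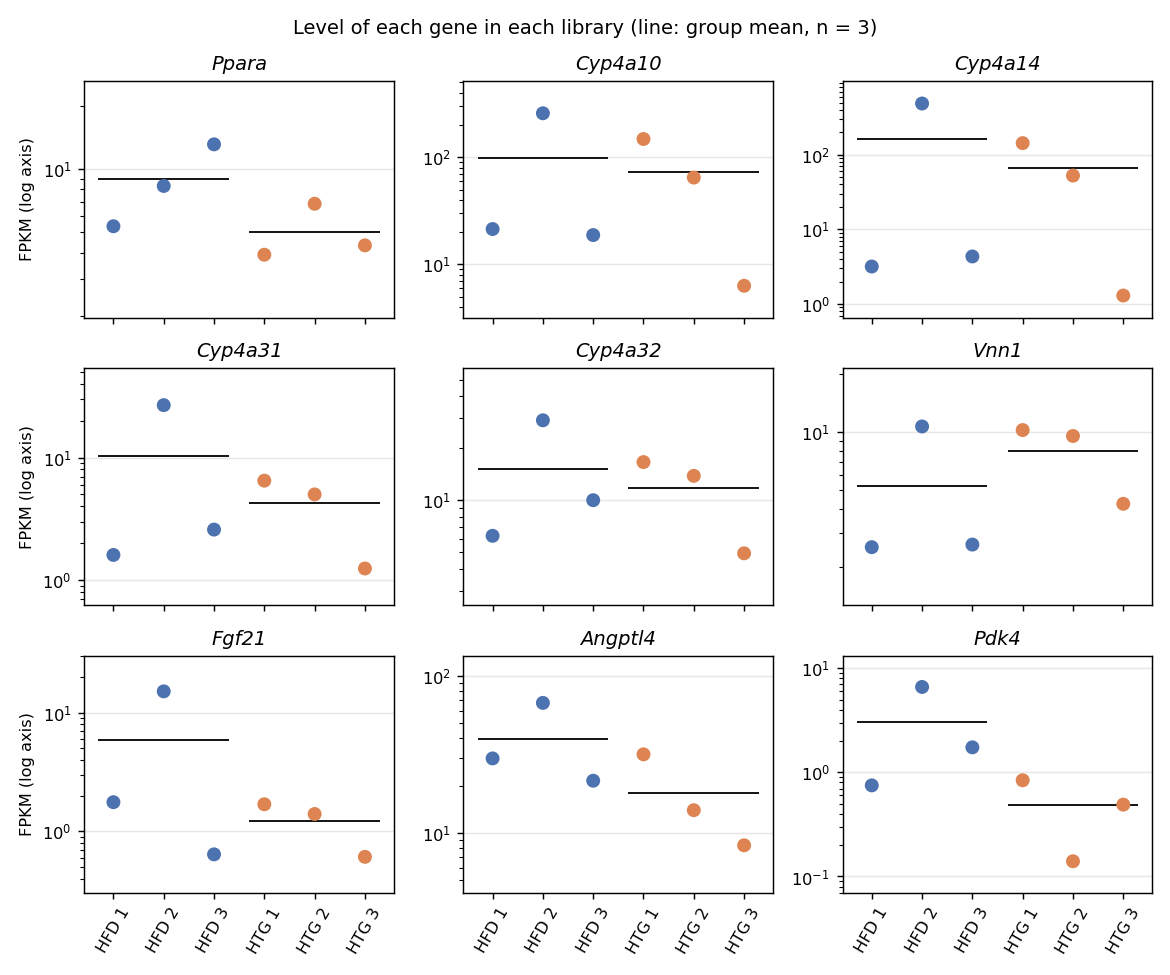
FPKM of the 9 genes in each library on log axes (blue, HFD; orange, HTG; horizontal line, group mean of 3 libraries). HFD library 2 is the highest point in every panel except that of Ppara, where HFD library 3 is highest.

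The 4 Cyp4a genes lie next to each other on chromosome 4 in the table's coordinates. Cyp4a14 (ENSMUSG00000028715, 115343397 to 115353339, minus strand) is followed by Cyp4a10 (ENSMUSG00000066072, 115375461 to 115390846), Cyp4a31 (ENSMUSG00000028712, 115420846 to 115436212) and Cyp4a32 (ENSMUSG00000063929, 115458166 to 115478799), all on the plus strand. No other listed gene overlapped them or any of the 9 genes. They are paralogs with similar sequences, and how the authors' counting divided shared reads between them was not stated, so the split between the 4 rows is uncertain.

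Cyp4a14 was the most variable of the 9. It had 3.18, 484.71 and 4.34 FPKM in HFD libraries 1, 2 and 3, against 142.92, 52.56 and 1.30 FPKM in HTG libraries 1, 2 and 3. HFD library 2 thus stood 129-fold above the mean of the other HFD libraries, and HTG library 1 stood 110-fold above HTG library 3. Both groups held libraries at a few FPKM and libraries at 50 FPKM or more. The group means were 472 ± 800 and 179 ± 201 CPM (SD, n = 3 per group), with a log2 fold change of -1.40 and a 95% confidence interval from -5.66 to 2.87 (edgeR's quasi-likelihood test, adjusted p = 0.679). The direction was set by HFD library 2. Without it the log2 fold change was 4.19 (95% confidence interval 0.63 to 7.74, unadjusted p = 0.0267, adjusted p = 0.192, edgeR's quasi-likelihood test), because HFD libraries 1 and 3 were both low. HFD library 2 was chosen for removal by its values, so this interval and p-value are descriptions.

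Cyp4a10 followed the same order over the upper libraries. Its FPKM values were 21.40, 257.78 and 18.80 in HFD libraries 1, 2 and 3, against 148.30, 64.77 and 6.32 in HTG libraries 1, 2 and 3. The spread inside each group was again larger than the difference between the groups, with 229 ± 323 CPM for HFD and 162 ± 162 CPM for HTG (SD, n = 3 per group). The log2 fold change was -0.50 (95% confidence interval -3.24 to 2.24, adjusted p = 0.831 in edgeR's quasi-likelihood test), and 1.93 (-0.42 to 4.28) without HFD library 2.

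By median FPKM and by pooled standard deviation within groups, Cyp4a31 and Cyp4a32 were less abundant and varied less than Cyp4a10 and Cyp4a14. Cyp4a32 still lay above Cyp4a14 in HFD libraries 1 and 3 and in HTG library 3. Within the HFD group the standard deviation of log2 CPM was 2.18 for Cyp4a31 and 2.20 for Cyp4a10. Cyp4a31 had 1.60, 26.85 and 2.58 FPKM in HFD libraries 1, 2 and 3, against 6.48, 5.0 and 1.24 FPKM in HTG libraries 1, 2 and 3. Cyp4a32 had 6.24, 29.12 and 10.03 FPKM and 16.68, 13.88 and 4.94 FPKM in the same order. In both genes HFD library 2 was highest, HTG libraries 1 and 2 came next and HTG library 3 was lowest. Their log2 fold changes were -1.34 (95% confidence interval -3.70 to 1.01) and -0.38 (-1.77 to 1.01), and without HFD library 2 they were 1.08 (-0.31 to 2.47) and 0.60 (-0.46 to 1.67).

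The make-up of the summed signal of these 4 Cyp4a genes changed with its size. Cyp4a12a and Cyp4a12b, of the same family, were not in the sum. They had 38.41 and 22.06 FPKM in HFD library 2, and 16.58 and 6.01 FPKM in HTG library 3. The shares below are therefore of the 4 genes and not of the whole family. The summed FPKM of the 4 genes was 32.4, 798 and 35.8 in HFD libraries 1, 2 and 3, against 314, 136 and 13.8 in HTG libraries 1, 2 and 3. In the 3 libraries with the largest sums, Cyp4a14 made up 60.7% (HFD library 2), 45.5% (HTG library 1) and 38.6% (HTG library 2) of the sum. In the other 3 it made up between 9.42% and 12.1%. Cyp4a32 went the other way, with 3.65% to 10.2% in the former libraries and 19.2% to 35.8% in the latter. The ratio of Cyp4a14 to Cyp4a10 was 1.88 in HFD library 2, 0.964 and 0.811 in HTG libraries 1 and 2, and between 0.149 and 0.231 in the other libraries. These libraries were ordered by the values themselves, so the shares are a description.

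**Figure D2:**
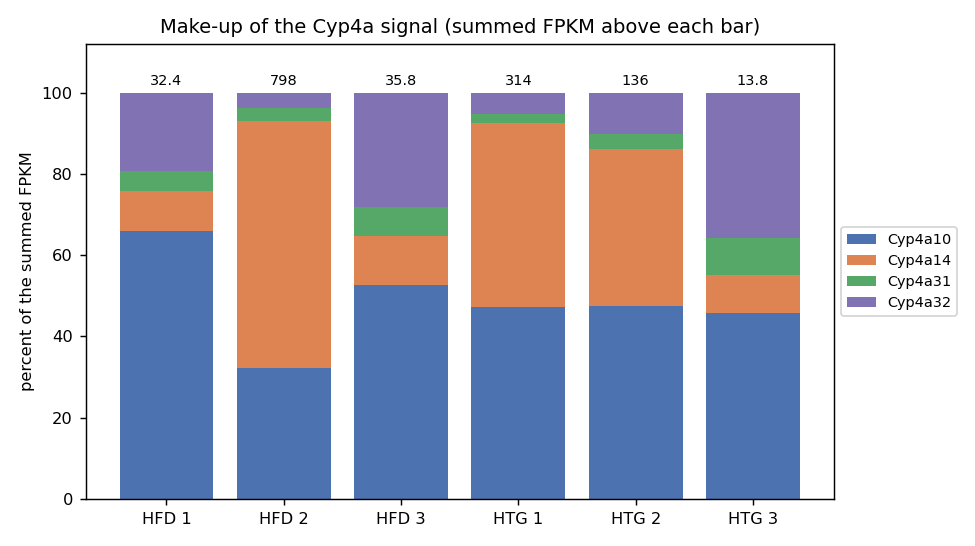
Share of each Cyp4a gene in the summed FPKM of the 4 genes, in percent, for each library, with the summed FPKM printed above each bar. Cyp4a14 takes 38.6% to 60.7% in the 3 libraries with sums of 136 or more and at most 12.1% in the others.

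Vnn1 (ENSMUSG00000037440, chromosome 10, 23770586 to 23781241, plus strand) encodes vanin 1, a pantetheinase that releases cysteamine and pantothenate. It had 2.54, 10.71 and 2.62 FPKM in HFD libraries 1, 2 and 3, against 10.26, 9.56 and 4.26 FPKM in HTG libraries 1, 2 and 3. It was the only one of the 9 with a fitted value above 0 in the HTG group, with a log2 fold change of 0.58 (95% confidence interval -0.79 to 1.94, adjusted p = 0.583 in edgeR's quasi-likelihood test). All 3 HTG libraries lay above HFD libraries 1 and 3 and below HFD library 2. Without HFD library 2, again chosen by its values, the log2 fold change was 1.71 (95% confidence interval 0.90 to 2.52, unadjusted p = 0.00144, adjusted p = 0.125, edgeR's quasi-likelihood test). It was 0.22 without HFD library 1, 0.23 without HFD library 3 and 0.31 without HTG library 1.

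The 2 secreted factors, Fgf21 and Angptl4, were lower in the HTG means. Fgf21 (ENSMUSG00000030827, chromosome 7, 45263310 to 45264914, minus strand) encodes a hormone that the liver releases in fasting and other metabolic stress. It had 1.76, 15.09 and 0.64 FPKM in HFD libraries 1, 2 and 3, against 1.69, 1.40 and 0.61 FPKM in HTG libraries 1, 2 and 3. The lowest values rested on few fragments, since the 45 counts of HFD library 3 and the 32 counts of HTG library 3 correspond to 11.2 and 8 fragments. Only HFD library 2 stood apart, 12.6-fold above the mean of the other HFD libraries, and the remaining 5 libraries of both groups lay between 0.61 and 1.76 FPKM. The log2 fold change was -2.28 (95% confidence interval -4.65 to 0.10, adjusted p = 0.220 in edgeR's quasi-likelihood test) with HFD library 2 and 0.11 (-1.26 to 1.49) without it.

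Angptl4 (ENSMUSG00000002289, chromosome 17, 33992724 to 34000804, minus strand) encodes a secreted inhibitor of lipoprotein lipase. Its FPKM was 29.77, 67.22 and 21.46 in HFD libraries 1, 2 and 3, against 31.60, 13.93 and 8.32 in HTG libraries 1, 2 and 3. HTG libraries 2 and 3 lay below all HFD libraries, and HTG library 1 lay above HFD libraries 1 and 3. The mean was 148 ± 101 CPM in the HFD group and 67.6 ± 46.0 in the HTG group (SD, n = 3 per group). The fitted log2 fold change was -1.13 (95% confidence interval -2.43 to 0.16, adjusted p = 0.260 in edgeR's quasi-likelihood test). Without HFD library 2 it was -0.43 (-1.58 to 0.73).

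Pdk4 (ENSMUSG00000019577, chromosome 6, 5483351 to 5496309, minus strand) encodes a kinase that switches off pyruvate dehydrogenase and so spares glucose when fat is burned. It had 0.75, 6.62 and 1.74 FPKM in HFD libraries 1, 2 and 3, against 0.84, 0.14 and 0.49 FPKM in HTG libraries 1, 2 and 3. HTG library 2 was the lowest with 47 counts, or 11.8 fragments, and HTG library 1 lay just above HFD library 1, so that the groups overlapped there. Its means were 11.5 ± 12.5 and 1.89 ± 1.36 CPM (SD, n = 3 per group). The log2 fold change of -2.61 (standard error 0.90, 95% confidence interval -4.68 to -0.55) was the most negative of the 9, with an unadjusted p of 0.0192 and an adjusted p of 0.126 in edgeR's quasi-likelihood test. Without HFD library 2 it was -1.23 (-2.89 to 0.44), with an unadjusted p of 0.127 in the same edgeR test, and a fit with a replicate block gave -2.12 with an unadjusted p of 0.118. Leaving out HTG library 2 gave -2.14 and an unadjusted p just above 0.05.

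**Figure D3:**
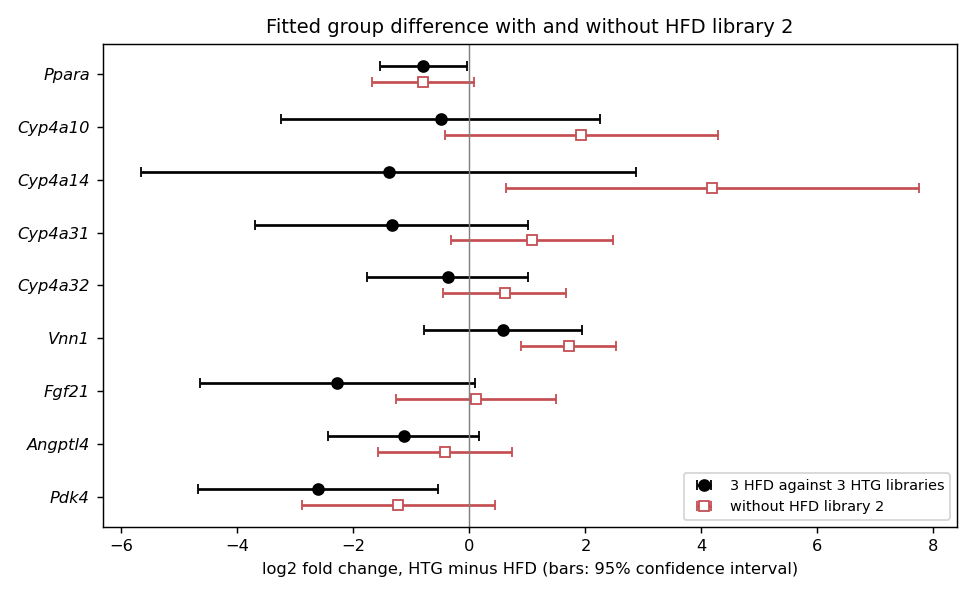
Fitted log2 fold change, HTG minus HFD, of each gene with its 95% confidence interval, from all 6 libraries (filled circles) and without HFD library 2 (open squares). The estimates of the 4 Cyp4a genes and of Fgf21 lie below 0 with that library and above 0 without it, while those of Ppara, Angptl4 and Pdk4 stay below 0 and that of Vnn1 stays above 0.

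Adipose tissue and skeletal muscle also express Angptl4 and Pdk4, and their markers were looked up. Adipoq, the adiponectin gene, had 0 counts in all 6 libraries. Of the other adipocyte markers in the table, Plin1, Cfd and Retn had 0 counts in HFD library 2, and the summed level of the 5 was 6.00 to 7.33 CPM in the HFD group and 18.7 to 41.4 CPM in the HTG group, nearly all of it Adrb3. Among 6 muscle markers, Ckm, Myh4, Tnnt3 and Myl1 had 0 counts in every library, and the sum was 0.896 to 1.09 CPM in the HFD group and 0.706 to 1.69 CPM in the HTG group.

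Per transcript length, and by the median FPKM over the 6 libraries, the order was Cyp4a10 (43.1), Cyp4a14 (28.5), Angptl4 (25.6), Cyp4a32 (12.0), Vnn1 (6.91), Ppara (6.09), Cyp4a31 (3.79), Fgf21 (1.55) and Pdk4 (0.795). Only Angptl4 over Cyp4a32 and Cyp4a32 over Vnn1 held in 6 of 6 libraries. Cyp4a10 over Cyp4a14, Cyp4a31 over Fgf21 and Fgf21 over Pdk4 held in 5 libraries, Ppara over Cyp4a31 in 4, and Cyp4a14 over Angptl4 and Vnn1 over Ppara in 3, so these neighbours did not separate. Angptl4 was the highest of the 9 in HFD libraries 1 and 3 and HTG library 3, Cyp4a10 in HTG libraries 1 and 2, and Cyp4a14 in HFD library 2.

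The spread inside the groups was large for the targets when set against the other genes. The pooled standard deviation of log2 CPM within groups was 3.76 for Cyp4a14, 2.23 for Cyp4a10, 1.73 for Cyp4a31, 1.46 for Fgf21 and 1.30 for Pdk4. It was 1.03 for Cyp4a32, 0.96 for Vnn1 and 0.93 for Angptl4, and 0.52 for Ppara. The median over all genes tested was 0.28. Each of the 8 targets had a larger spread than at least 97.8% of the genes tested, and Ppara a larger one than 88.0%.

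The profiles most like those of Cyp4a10 and of Ppara were different genes. Likeness was the root mean square difference of log2 CPM over the 6 libraries after each gene was centred on its own mean. Closest to Cyp4a10 were Retsat (0.70), Cyp4a31 (0.71), Elovl3 (0.75), Acot2 (0.78) and G0s2 (0.79), against a median of 1.85 over the 13459 genes compared. Retsat encodes retinol saturase, Elovl3 a fatty acid elongase, Acot2 a mitochondrial acyl-CoA thioesterase and G0s2 an inhibitor of adipose triglyceride lipase. Retsat and G0s2 are also in the wider list of PPAR-alpha targets described below, and Acot2 is in the list of ligand supply. Cyp4a32, Fgf21, Vnn1, Angptl4 and Cyp4a14 ranked 15, 25, 37, 38 and 57, whereas Pdk4 ranked 2951 and Ppara 8249. Closest to Ppara were Foxm1 (0.14), Ahnak (0.18), Gm7292 (0.19), Rps6kc1 (0.20) and Cav1 (0.20), with a median of 0.63. The 8 targets ranked between 11633 and 13459 among the same number of genes in likeness to Ppara. The measure is not scaled for spread, so genes that vary as widely as the targets rank far from Ppara whatever the order of their libraries. For the same reason only genes that vary widely can lie close to Cyp4a10. Depth and tissue were shared by all points, and the likeness is a description of 6 libraries.

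A wider list of known PPAR-alpha targets was set beside the 8. It held 71 genes, of which 70 were in the table and 67 were tested. Whether the receptor raises or lowers each of these genes was not recorded in the list. Of the 67, 48 (71.6%) had their highest value in HFD library 2, against 21.4% of all genes tested, and 36 (53.7%) had their lowest value in HTG library 3, against 14.8%. A level at least 2-fold above both other HFD libraries was seen in HFD library 2 for 21 of them (31.3%), against 3.17% of all genes tested. HTG library 1 lay above HTG library 3 in 60 of the 67 (89.6%), against 50.4%. The same libraries thus stood at the ends for the wider list as for the 8 targets, and these shares are descriptions with no test.

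**Figure D4:**
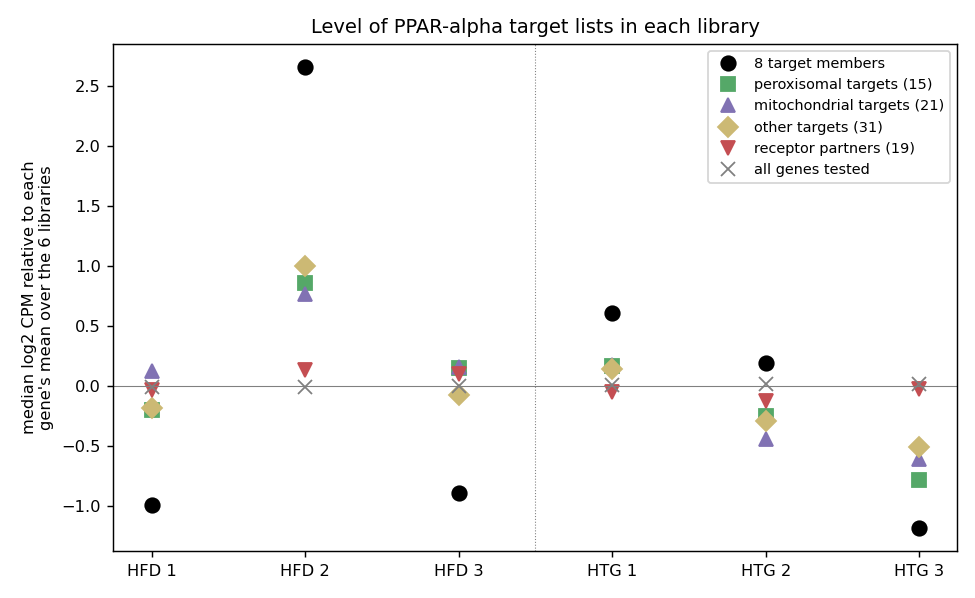
Median, for each list and library, of log2 CPM relative to each gene's mean over the 6 libraries. The 8 targets reach 2.66 in HFD library 2 and the peroxisomal, mitochondrial and other targets reach 0.86, 0.76 and 1.0 there, while the receptor partners (0.13) and all genes tested (-0.01) stay near 0.

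In the peroxisome, where very long fatty acids are shortened, 12 of 15 targets were highest in HFD library 2. Ehhadh, the bifunctional enzyme of that pathway, had 92.7, 889 and 186 CPM in HFD libraries 1, 2 and 3, against 155, 107 and 56.0 CPM in HTG libraries 1, 2 and 3. The log2 fold change of this gene was -1.88 (95% confidence interval -3.65 to -0.11, adjusted p = 0.180 in edgeR's quasi-likelihood test). Abcd3, a peroxisomal fatty acyl-CoA transporter, did not overlap between the groups, with 455 ± 171 and 166 ± 54.9 CPM (SD, n = 3 per group, log2 fold change -1.46, adjusted p = 0.0654 in edgeR's quasi-likelihood test). Decr2 did not overlap either, with a log2 fold change of -0.46 (adjusted p = 0.215).

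In the mitochondrion, 17 of 21 targets were highest in HFD library 2, and 14 of 21 were lowest in HTG library 3. Cpt1a, which passes fatty acids on to carnitine for entry, had 347, 612 and 366 CPM in HFD libraries 1, 2 and 3, against 237, 192 and 151 CPM in HTG libraries 1, 2 and 3. The groups did not overlap (log2 fold change -1.19, adjusted p = 0.0654 in edgeR's quasi-likelihood test). Hadha, a subunit of the trifunctional protein of beta-oxidation, did not overlap either, with 297 ± 98.8 and 136 ± 53.8 CPM (SD, n = 3 per group, adjusted p = 0.0962 in the same test). Both genes spanned a narrower range over the libraries than Cyp4a10 and Cyp4a14.

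Of the 31 other targets tested, 19 were highest in HFD library 2. Plin2, a lipid droplet coat protein, had 236, 1186 and 282 CPM in HFD libraries 1, 2 and 3, against 247, 85.0 and 106 CPM in HTG libraries 1, 2 and 3. The log2 fold change of this gene was -1.96 (95% confidence interval -3.50 to -0.42, adjusted p = 0.124 in edgeR's quasi-likelihood test), and HTG library 1 lay within the HFD range. Cyp4a12a, another gene of the Cyp4a family, had 36.0, 103 and 24.4 CPM against 49.8, 57.6 and 46.2 CPM. Creb3l3, a transcription factor that also acts on Fgf21, had 225, 416 and 191 CPM against 246, 200 and 182 CPM, so both genes overlapped between the groups. The apolipoprotein genes Apoc3 and Apoa2 lay higher in every HTG library. Apoc3 had 756 ± 116 and 1501 ± 131 CPM, and Apoa2 had 1952 ± 462 and 3531 ± 498 CPM (SD, n = 3 per group), with adjusted p of 0.0612 and 0.104 in edgeR's quasi-likelihood test. Me1, malic enzyme, and Mfsd2a, a lipid transporter, lay lower in the HTG group without overlap (log2 fold changes -2.16 and -1.90, adjusted p of 0.0616 and 0.0625 in that test).

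Over the whole list of further targets, the fitted value was lower in the HTG group in 58 of 67 genes, against 8933 of all 18455 tested. The median log2 fold change of the 67 was -0.53. Genes that the receptor raises and genes that it lowers were not separated, so these counts give no direction of receptor activity. None had an adjusted p under 0.05 in edgeR's quasi-likelihood test, and at an unadjusted p under 0.05, 17 were lower and 2 higher, against 12.4% and 12.3% of all genes tested. Complete separation of the groups was seen for 13 lower and 2 higher genes, against 15.5% and 16.5% of all genes tested. Without HFD library 2 the median was -0.20, with a fitted value below 0 in 41 of 67, against 47.7% of all genes in that fit. At an unadjusted p under 0.05, 12 were then lower and 5 higher, against 9.72% and 10.6% of all genes. The KEGG entry PPAR signaling pathway of the table, which also holds genes of other PPAR receptors and tissues, had 72 of its 82 genes tested, with a median log2 fold change of -0.44, 15 lower and 5 higher at an unadjusted p under 0.05, and 32 (44.4%) highest in HFD library 2.

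The partners and coregulators of the receptor were set beside its targets. Of 19 tested, 6 (31.6%) were highest in HFD library 2, against 21.4% of all genes tested. At least 2-fold above both other HFD libraries there were 0 of the 19, against 3.17%. These shares are descriptions with no test, and the spread of the 19 within groups was not computed. Rxra, the DNA-binding partner, had 381, 430 and 380 CPM in HFD libraries 1, 2 and 3, against 275, 211 and 232 CPM in HTG libraries 1, 2 and 3, without overlap (log2 fold change -0.73, adjusted p = 0.0785 in edgeR's quasi-likelihood test). Lpin1, a phosphatidate phosphatase that is also a coactivator, had 128 ± 28.4 and 38.6 ± 11.3 CPM (SD, n = 3 per group, log2 fold change -1.73, adjusted p = 0.0538 in the same test), also without overlap. The coactivator gene Ppargc1a had 11.7, 9.93 and 12.0 CPM against 5.07, 8.63 and 11.9 CPM, with the groups overlapping. The corepressor gene Ncor1 did not overlap by a small margin, with 56.2 CPM in its lowest HFD and 55.5 CPM in its highest HTG library (log2 fold change -0.27, adjusted p = 0.389). Sirt1, a deacetylase of the coactivator, lay higher in all HTG libraries (12.4 ± 2.40 and 17.0 ± 1.18 CPM, SD, n = 3 per group, adjusted p = 0.192). In all, 4 of the 19 were lower and 1 higher at an unadjusted p under 0.05, against 12.4% and 12.3% of all genes tested.

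Genes that supply fatty acid ligands differed among themselves. Acot1, a cytosolic acyl-CoA thioesterase, was highest in HFD library 2 and next in HTG library 1, with 8.75, 161 and 5.65 CPM in HFD libraries 1, 2 and 3, against 30.0, 6.16 and 1.32 CPM in HTG libraries 1, 2 and 3. Its HTG library 2, unlike that of the Cyp4a genes, lay between HFD libraries 1 and 3. Fabp1, the liver fatty acid binding protein that carries ligands to the receptor, had 491, 1320 and 650 CPM against 1449, 2647 and 1558 CPM, higher in every HTG library (log2 fold change 1.20, 95% confidence interval 0.26 to 2.15, adjusted p = 0.125 in edgeR's quasi-likelihood test). Slc27a5 and Slc27a4, fatty acid transport proteins, were lower in every HTG library, with log2 fold changes of -0.92 and -0.97 (adjusted p of 0.0657 and 0.0886 in that test). Cd36, a fatty acid receptor, overlapped, with 57.3 ± 15.6 and 32.3 ± 13.5 CPM (SD, n = 3 per group). Of 18 genes, 5 were lower and 1 higher at an unadjusted p under 0.05 (12.4% and 12.3% of all genes tested), and 9 were highest in HFD library 2 (21.4% of all genes tested).

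Other regulators also act on some of the 9 genes, and their own levels are given beside them, without a test of their part. Of 16 such regulators, 5 were highest in HFD library 2, and their median in that library was 0.10 on the centred log2 scale. The groups did not overlap for 3 higher and 4 lower of the 16, against 16.5% and 15.5% of all genes tested. The genes named next were picked among these. Mlxipl, which encodes the carbohydrate sensor ChREBP and acts on Fgf21, had 358 ± 91.7 and 873 ± 243 CPM. Creb1 had 14.1 ± 1.05 and 17.4 ± 2.63 CPM (SD, n = 3 per group). Their adjusted p were 0.0613 and 0.325 in edgeR's quasi-likelihood test. Foxo1, which acts on Pdk4, had 29.5 ± 5.81 and 18.8 ± 2.42 CPM. Hif1a, which acts on Angptl4, had 31.8 ± 8.19 and 17.4 ± 2.01 CPM (SD, n = 3 per group). Both were lower in all HTG libraries (adjusted p of 0.0937 and 0.0704 in that test). Among 10 genes that follow glucocorticoids, which act on Pdk4 and Angptl4, 4 were highest in HFD library 2. Tat and Sgk1 were lower in every HTG library (log2 fold changes -1.32 and -0.48, adjusted p of 0.0839 and 0.168 in that test). Of the 10, 7 had a fitted value below 0 and 3 above it, the latter being Mt1 (1.08), Mt2 (1.25) and Lcn2 (0.72), named here after their values were seen, whose groups overlapped. Among 12 genes that follow ATF4, which acts on Fgf21, 3 were highest in HFD library 2. In edgeR's quasi-likelihood test 5 were lower and 0 higher at an unadjusted p under 0.05, against 12.4% and 12.3% of all genes tested. Phgdh and Psat1 came first among these, but Phgdh had only 14, 39 and 8 counts in HTG libraries 1, 2 and 3. Of the 12, 9 had a fitted value below 0 and 3 above it, while 8933 of all 18455 genes tested were below 0. Atf4 itself was higher in every HTG library (log2 fold change 0.20, adjusted p = 0.502 in the same test).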

How the data were processed

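Liver RNA of 3 HFD and 3 HTG animals was analysed. For every gene in every library the authors deposited an estimated count, given as a whole number without scaling between libraries, together with FPKM, which is scaled by transcript length and library fragments. The submitters' processing notes name HISAT2, StringTie and SAMtools and the rat build mRatBN7.2, although the rows are mouse genes. Versions and the use of strand in counting are not given in the sources used here. The reference tables supplied are of rat and no sequence was printed.

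Counts were tested with edgeR 4.0.16 (glmQLFit, glmQLFTest, TMM, filterByExpr, group as the only term) in R 4.3.3 with Benjamini-Hochberg adjustment over 18455 genes. Standard errors were taken from the fold change and the F statistic. The smallest p of an exact permutation test of 3 against 3 is 0.1. P-values set the group difference against the variation between libraries of the same group, 3 per group. The limit for an empty gene is 3 fragments, or 12 counts (0.123 to 0.256 CPM), which covers counting error only. Likeness used genes with at least 1 CPM on average and a symbol, and log2 CPM had 0.5 added.

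Named genes were the 9, genes chosen by role, and in each list up to 2 per direction with the smallest p, no overlap and a mean of at least 50 counts, and the 5 genes most like Ppara or Cyp4a10. Some genes chosen by role are not reported here. The genes and lists were chosen with earlier results of these data known. Lists covered receptor partners, ligand supply, further targets (peroxisomal, mitochondrial, other), other regulators, glucocorticoid and ATF4 readouts, the clock, sex-biased genes, zonation and markers of 10 cell types or tissues. The KEGG entry was counted only. Alternatives were DESeq2 1.42.0, other scalings and filters, counts divided by 4, the replicate block, each library left out, and limma 3.58.1 on log2(FPKM + 0.1) or log2(FPKM + 1) for genes with a mean of at least 0.5. The scripts were tested on simulated counts.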

Additional observations from a re-analysis of the deposited data

How the results depend on the processing

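None of the 9 genes had an adjusted p under 0.05 under any alternative run. Over all genes, the count at that threshold was 2 in edgeR and moved to 2104 in DESeq2, 822 with counts divided by 4, 684 with at least 10 counts in every library, 162 without a filter, 223 and 407 in limma on log2(FPKM + 0.1) and log2(FPKM + 1), 0 in limma without a filter, and 0 to 653 with 1 library left out. The cause was not tested. The median log2 fold change of the 9 genes was -1.13 and ran from -1.83 (without HTG library 1) to 0.60 (without HFD library 2), and that of the further targets from -0.80 to -0.20. Directions reversed without HFD library 2 for Cyp4a10 (1.93), Cyp4a14 (4.19), Cyp4a31 (1.08), Cyp4a32 (0.60) and Fgf21 (0.11), and without HTG library 3 for Cyp4a10 (0.07). The lowest values with 1 library left out were -1.62, -2.77, -1.86, -0.77 and -2.81 for these 5 genes in the same order. Cyp4a14 also reversed in limma on log2(FPKM + 0.1), with and without the filter (0.19 in both), and on log2(FPKM + 1) (0.24). Ppara, Vnn1, Angptl4 and Pdk4 kept their direction in all 16 alternatives. For Pdk4 and Fgf21 the values near 8 to 12 fragments limit the precision.

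The libraries of both groups carry the numbers 1 to 3, and nothing says that a number marks a shared animal or day. Deviations of same-numbered libraries from their group means correlated with r between -0.13 and 0.19, so the numbers were not read as pairs. With the replicate block the count over all genes was 0, the median of the 9 genes was -0.73, and no call at an adjusted p under 0.05 changed among them, while Pdk4 no longer had an unadjusted p under 0.05 (0.118).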

Other observations

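Lists on zonation, sex, the clock and other cells were examined beside the targets. Of 10 pericentral hepatocyte genes, 5 were lower and 0 higher in the HTG group at an unadjusted p under 0.05 (edgeR's quasi-likelihood test), against 12.4% lower and 12.3% higher of all genes tested, which also applies to the counts that follow, and 4 were highest in HFD library 2. Cyp2c29 had 968, 1559 and 785 CPM in HFD libraries 1, 2 and 3 and 433, 174 and 123 CPM in HTG libraries 1, 2 and 3. Cyp1a2 had 820 ± 152 and 375 ± 90.6 CPM (SD, n = 3 per group). Of 10 periportal genes, 4 were lower and 0 higher, and 2 were highest in HFD library 2, with Cps1 of the urea cycle at 2049, 2213 and 3991 CPM against 921, 845 and 923 CPM and Sdhd at 178 ± 30.7 and 62.8 ± 20.2 CPM (SD, n = 3 per group). The fitted value was lower in the HTG group in 8 of 10 genes of either zone, against 8933 of all 18455 genes tested. The median log2 fold changes of the zones were -0.77 and -0.48. In HFD library 2, 0 genes of either list were at least 2-fold above both other HFD libraries, against 3.17% of all genes tested.

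Of 15 clock genes tested, 1 was lower and 0 higher at an unadjusted p under 0.05, namely Per1 (58.0 ± 12.6 and 39.0 ± 8.62 CPM, SD, n = 3 per group), and 4 were highest in HFD library 2. Some differed widely within a group. Of the 15, 7 were lowest in HTG library 1, against 10.2% of all genes tested, and 6 were highest in HTG library 2, against 21.9%. Dbp, named here after its values were seen, had 144, 29.4 and 28.3 CPM in HFD libraries 1, 2 and 3. In HTG libraries 1, 2 and 3 it had 5.83, 274 and 116 CPM. Cry2 varied less, with 34.4, 41.7 and 38.1 CPM against 29.8, 39.9 and 34.0 CPM. Of 10 sex-biased genes tested, 6 were highest in HFD library 2, 4 of them at least 2-fold above both other HFD libraries (Cyp4a12a and Cyp4a12b, which are also in the list of further PPAR-alpha targets, among these), and 1, Hsd3b5, was higher in the HTG group at that threshold. Among cell markers, 3 of 7 hepatocyte, 0 of 8 macrophage, 0 of 6 endothelial, 0 of 7 stellate, 0 of 8 leukocyte, 1 of 6 cholangiocyte and 1 of 6 red cell genes were highest in HFD library 2, against 21.4% of all genes tested, and the 2 pancreas genes tested were not. The macrophage marker Adgre1 had 22.1 ± 5.42 and 7.64 ± 2.09 CPM (SD, n = 3 per group). It was the only 1 of the 8 macrophage markers with an unadjusted p under 0.05 in edgeR's quasi-likelihood test. Of the 8, 7 had a fitted value below 0 and 1 above it, against 8933 of all 18455 genes tested below 0. The median log2 fold change of the 8 was -0.43. Csf1r had 79.9 ± 9.28 and 58.5 ± 12.6 CPM (SD, n = 3 per group). Adrb3 had 6.69 ± 0.666 and 33.3 ± 13.1 CPM (SD, n = 3 per group) without other adipocyte markers at that level.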
